A study of Sus scrofa with 60 samples.

Results

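Whether the liver's response to bile duct ligation depended on how neonatal pigs were fed was examined as a difference of differences. The change from sham surgery to bile duct ligation (BDL) in pigs fed parenterally with a mixed lipid emulsion (MLE) was compared, gene by gene, with the same change in enterally fed pigs (ENT). The contrast is between the 39 pigs of 60 that the labels place in these 4 groups, which were 12 ENT-sham, 10 ENT-BDL, 9 MLE-sham and 8 MLE-BDL pigs. The 16210 genes that passed the filter on low counts were fitted on all 60 pigs, so that the other 21, fed a soybean lipid emulsion, also enter the estimate of the spread. The interaction is MLE-BDL minus MLE-sham, less ENT-BDL minus ENT-sham, on the log2 scale, so that a negative value means that ligation moved a gene less upward, or more downward, in MLE pigs.

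All pigs were delivered slightly preterm by cesarean section and carried a jugular catheter, and both sexes were used. BDL closed off both the gallbladder's duct and the common bile duct, whereas the sham operation opened the abdomen and left the ducts intact. ENT pigs were given a milk replacer formula through an orogastric tube after an initial period of total parenteral nutrition. MLE pigs stayed on parenteral nutrition whose lipid was SMOFlipid, a mixture of soybean, fish and olive oils with medium-chain triglycerides, and liver was taken on day 14. No transgene or allele was involved. The 2 diets differ in the feeding route and in the lipid at once, and these cannot be told apart here.

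Bile carries bile acids, cholesterol and phospholipid out of the liver, and ligation of the duct keeps them in. Hepatocytes adjust bile acid synthesis and shift export towards the sinusoidal membrane in response, cholangiocytes proliferate in what is called a ductular reaction, and matrix is laid down around the portal tracts. Hepatic cholesterol synthesis runs from acetyl-CoA through the mevalonate pathway, under the transcription factor SREBF2, and falls when the cell is rich in sterol.

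The 39 libraries held between 14776809 and 21374161 reads counted to genes (median 17245488), and the 10 most abundant genes took between 15.5% and 24.2% of them. The 20 hepatocyte markers summed to between 72810 and 180800 CPM in every library, as a liver label requires. The library labelled ENT-sham replicate 2 and the library labelled ENT-BDL replicate 1 were near-identical. Their counts differed by a chi-square of 1.905 per degree of freedom over 15841 genes, against 16.1 for the next closest of 741 pairs. Of 723 genes called between ENT-BDL and ENT-sham in a fit without both (4.48% of 16141), the library labelled ENT-sham replicate 2 lay on the BDL side for 87.0%, whereas the other ENT-sham libraries did so for 7.88% to 17.4%. The library labelled ENT-BDL replicate 1 lay on the BDL side for 87.4% of them. The counts of the library labelled ENT-sham replicate 2 therefore go against its label, and values without both libraries are given beside the results that moved most when the pair was left out. The titles also carry a 3-digit number whose meaning the sources used here do not give. Of 22 ENT pigs, 17 have a number that no MLE pig has, 6 of 17 MLE pigs have a number that no ENT pig has, and only 2 numbers, of 6 and 5 pigs, hold all 4 groups, each with 1 ENT-sham and 1 ENT-BDL pig. What this number marks and the diets are therefore partly confounded, so values within the number of 6 pigs and within the number of 5 pigs are given, in this order and without a test, beside the main findings.

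Few genes passed the test of the interaction itself. In all, 13 of 16210 genes (0.0802%) had an adjusted p under 0.05, of which 3 (0.0185%) moved more upward and 10 (0.0617%) more downward with ligation in MLE than in ENT pigs (edgeR's quasi-likelihood test with Benjamini-Hochberg adjustment). The count depended on the fit, and was 11 with another scaling (RLE; 4 more upward and 7 more downward), 37 with the 39 pigs alone (9 and 28), 47 by DESeq2 (16 and 31), 72 with the title number, described above, as a block (17 and 55), 182 by limma-voom with library weights (44 and 138) and 0 in the pigs with title numbers held by both diets. The lowest adjusted p was 0.0373, and 1439 genes had an unadjusted p under 0.05. Without the near-identical libraries the count was 38 of 16141 genes (0.235%), 7 (0.0434%) more upward and 31 (0.192%) more downward, with a lowest adjusted p of 0.00159, and all 13 genes were among them. The 13 did not share 1 form. The MLE-sham and ENT-sham groups differed for 12 of the 13, and the BDL groups for 8. The ligation response passed the test in ENT pigs for 7 of the 13 and in MLE pigs for 6. These contrasts use the same pigs as the interaction and are not independent of it. The count moved when single pigs were left out. In 14 of 39 fits that each left out 1 pig no gene passed, although 1302 to 1473 genes then had an unadjusted p under 0.05. The lowest adjusted p in these 14 fits was between 0.051 and 0.068, near the threshold. These fits were without ENT-sham replicate 3, 5 or 6, ENT-BDL replicate 4 or 9, MLE-sham replicate 1, 3 or 5, or MLE-BDL replicate 2, 3, 4, 5, 6 or 7. Without the library labelled ENT-sham replicate 2 alone, 47 genes passed.

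Among the 13 were HMGCS1 and SQLE of cholesterol synthesis. Levels are given as CPM, a gene's counts scaled to a common total of counted reads with TMM factors. HMGCS1, which makes HMG-CoA from acetyl-CoA units at the entry of the mevalonate pathway (gene 100524223, chr16:27936225-27957261 of Sscrofa11.1), was measured at 105 to 553 CPM in ENT-sham pigs (median 188), 498 to 1070 in ENT-BDL pigs (median 690), 416 to 1277 in MLE-sham pigs (median 735) and 650 to 1122 in MLE-BDL pigs (median 859). ENT-sham pigs were the low group and the other 3 groups overlapped one another. The highest ENT-sham value, 552.8 CPM, belongs to the near-identical library, and the other ENT-sham pigs reached at most 306.5 CPM, below every ENT-BDL pig. Without both near-identical libraries 206 genes (1.27%) had every ENT-BDL pig above every ENT-sham pig. HMGCS1 rose with ligation in ENT pigs by 1.63 ± 0.20 (log2, SE; adjusted p = 6.3e-08), and the difference in MLE pigs was 0.14 ± 0.23 (adjusted p = 0.744). The interaction was -1.49 (95% interval -2.10 to -0.89, adjusted p = 0.0373), and -1.71 (adjusted p = 0.00159) without the near-identical libraries. Between the sham groups HMGCS1 was higher on MLE by 1.79 (adjusted p = 2.21e-09), whereas between the BDL groups the difference was 0.30 (adjusted p = 0.393).

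SQLE, the squalene epoxidase that begins the sterol-specific steps (gene 100113409, chr4:14669789-14700152), also had ENT-sham as its lowest group. Its level was 71.3 to 136 CPM in ENT-sham (median 106), 119 to 239 in ENT-BDL (median 181), 132 to 228 in MLE-sham (median 185) and 130 to 206 in MLE-BDL (median 168). All but 1 ENT-BDL pig lay above every ENT-sham pig. The ranges of the MLE groups overlapped, but the lowest MLE-sham value, 131.9 CPM, belongs to 1 pig (replicate 9). The other MLE-sham pigs ran from 173.6 to 228.2 CPM, above the MLE-BDL median. SQLE rose by 0.73 ± 0.13 in ENT pigs (adjusted p = 2.21e-05) and differed by -0.15 ± 0.14 in MLE pigs (adjusted p = 0.535), with an interaction of -0.88 (interval -1.26 to -0.50, adjusted p = 0.0394).

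**Figure D1:**
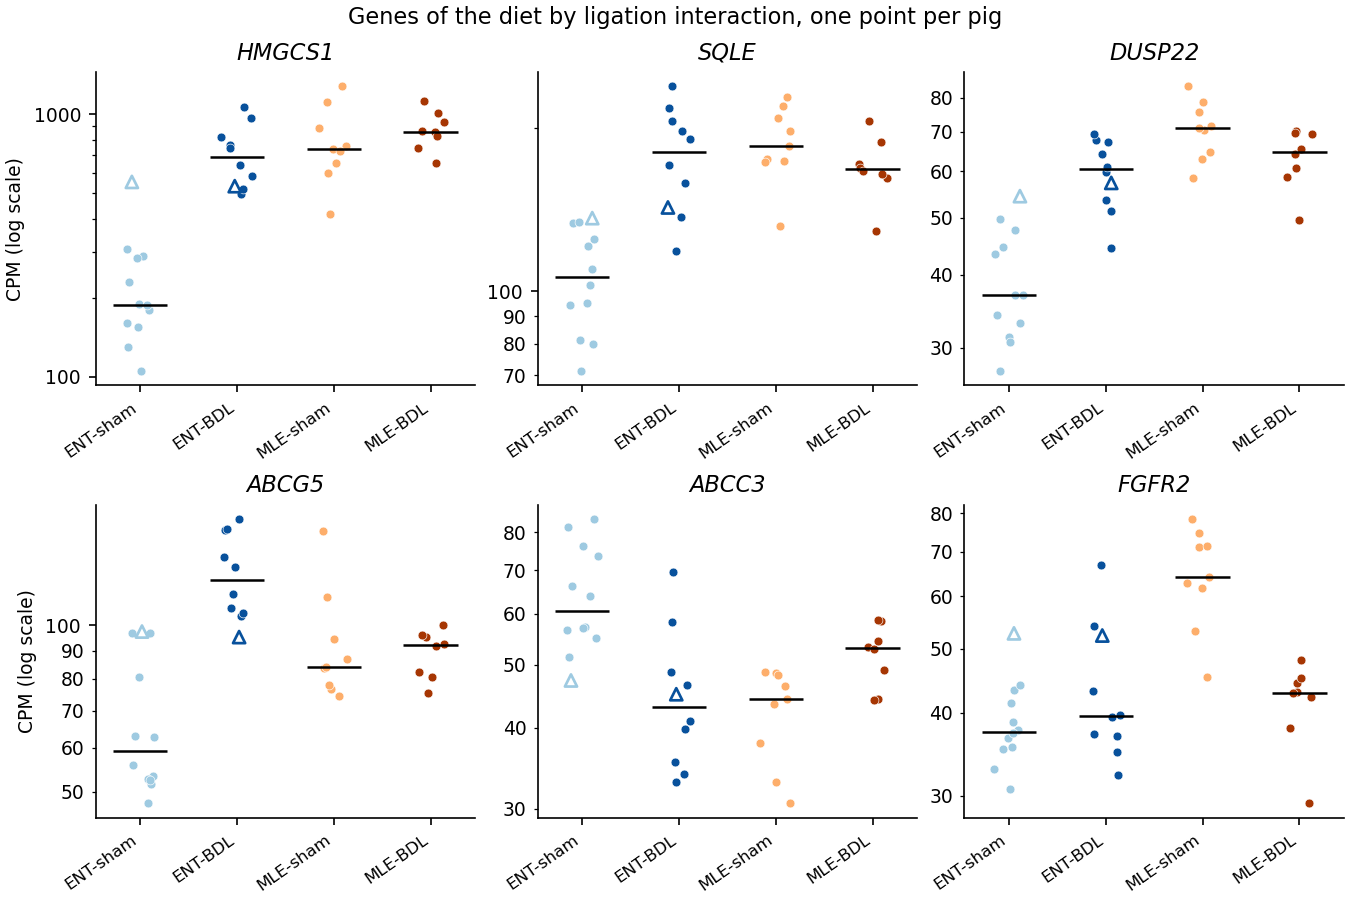
CPM on a log axis of 6 genes in each of the 39 pigs, by group, with a bar at the group median and open triangles for the near-identical libraries ENT-sham replicate 2 and ENT-BDL replicate 1. For HMGCS1, SQLE, DUSP22 and ABCG5 the ENT-sham pigs are the low group, for ABCC3 they are the high group (median 60.6 CPM), and for FGFR2 the MLE-sham pigs are (median 64.2 CPM).

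Over the whole list of cholesterol synthesis and uptake genes the estimates had 1 sign, although with all pigs only HMGCS1 and SQLE passed (3 of the 23 without the near-identical libraries) and the interval of the interaction lay within 2-fold for 18 of the 23 (73.6% of all genes). All 23 tested genes had an interaction estimate below 0, against 51.2% of all genes tested, and their median was -0.41, against -0.01 over all genes. The 23 genes are measured in the same pigs and are not independent of one another. The estimate was below 0 for all 23 in each of the 39 fits that left out 1 pig, where the list's median ran from -0.46 to -0.38. In ENT pigs 11 of the 23 rose at any fold (background for rises, 8.78% of all genes) and none fell, with a median of 0.28. Those that rose included FDPS, which makes farnesyl diphosphate (0.57, adjusted p = 0.000228), CYP51, the lanosterol demethylase (0.52, adjusted p = 0.00211), and MSMO1, a sterol oxidase (0.48, adjusted p = 0.00583). In MLE pigs none rose and 2 fell (background for falls, 7.2%), with a median of -0.14. One of these was MVK, the mevalonate kinase (-0.53, adjusted p = 0.026).

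The summed level of the 23 genes shows where the difference lay. The median sum was 4678 CPM in ENT-sham (3446 to 5518), 5975 in ENT-BDL (5121 to 7173), 6800 in MLE-sham (5449 to 8634) and 6571 in MLE-BDL (5985 to 7687). ENT-sham was the low group by its median, although its range reached into those of ENT-BDL and MLE-sham. The other 3 groups overlapped one another. Between the sham groups 19 of the 23 genes were higher on MLE at any fold (background 10.7%) and none was lower, whereas between the BDL groups 1 was higher (background 7.59%). Within the number of 6 pigs the interaction estimate was below 0 for 21 of the 23 genes (median -0.30) and within that of 5 pigs for all 23 (median -0.69), while the medians of the responses were 0.315 and 0.678 on ENT and -0.095 and 0.06 on MLE. For HMGCS1 the values within those numbers were -1.53 and -1.88 and for SQLE -0.80 and -1.21.

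**Figure D2:**
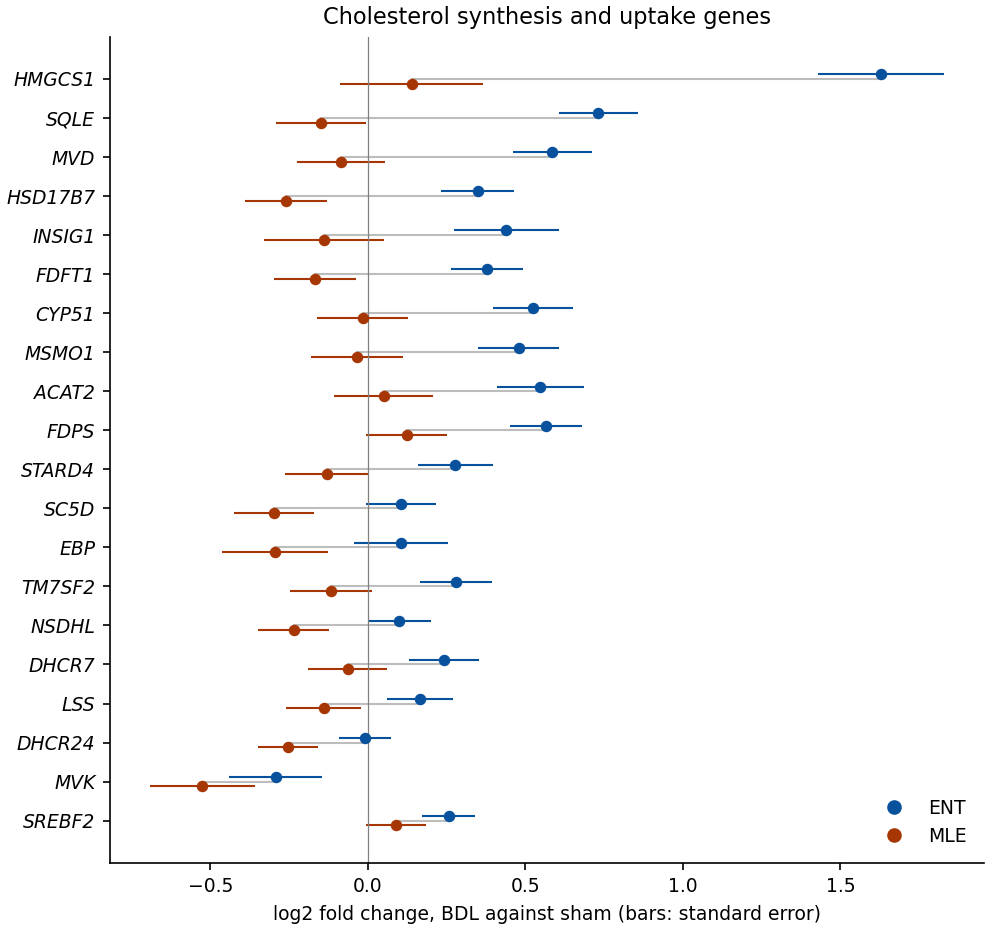
Log2 difference between BDL and sham pigs, with its SE, for 20 of the 23 tested cholesterol synthesis and uptake genes in ENT (blue) and MLE (brown) pigs, ordered by the interaction. The MLE value is the lower of the pair for all 20 genes drawn, and the gap is widest for HMGCS1 (1.63 against 0.14).

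Among the genes of bile acid and sterol export, ABCG5 and ABCC3 passed the test of the interaction, in opposite directions. ABCG5, which with ABCG8 secretes cholesterol and plant sterols into bile (gene 102164809, chr3:96616304-96656893), was measured at 47.6 to 97.5 CPM in ENT-sham (median 59.3), 95.2 to 156 in ENT-BDL (median 121), 74.6 to 148 in MLE-sham (median 84.2) and 75.4 to 100 in MLE-BDL (median 92.2). The ENT groups overlapped only at the near-identical library labelled ENT-BDL replicate 1 (95.2 CPM), and the MLE-BDL pigs lay within the range of MLE-sham. ABCG5 rose by 0.88 ± 0.13 in ENT pigs (adjusted p = 1.27e-06), and the MLE difference was -0.06 ± 0.14 (adjusted p = 0.833). The interaction was -0.94 (interval -1.32 to -0.55, adjusted p = 0.0373), and the values within the title numbers were -1.11 and -1.78. The gene overlaps DYNC2LI1, and since the library kit does not mark strand, reads of the overlap cannot be assigned with certainty.

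ABCC3, a sinusoidal exporter of conjugated bile acids and bilirubin (gene 100513231, chr12:26920764-26978389, overlapping ANKRD40), ran the other way. Its level was 47.3 to 84.0 CPM in ENT-sham (median 60.6), 33 to 69.5 in ENT-BDL (median 43.05), 30.6 to 48.7 in MLE-sham (median 44.3) and 44.1 to 58.6 in MLE-BDL (median 53.1). ENT-sham pigs were highest, and most MLE-BDL pigs lay above all MLE-sham pigs. ABCC3 fell by 0.51 ± 0.11 in ENT pigs (adjusted p = 0.000939) and differed by 0.29 ± 0.13 in MLE pigs (adjusted p = 0.118), an interaction of 0.80 (interval 0.46 to 1.14, adjusted p = 0.0394). Within the title numbers it was 0.69 and 0.52.

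The other transporters and sensors on the list gave no interaction that passed. Of the 23 tested genes, 4 were called in ENT pigs (adjusted p under 0.05 and more than 2-fold; 3.41% of all genes) and 3 in MLE pigs (3.73%). SLC51A and SLC51B, the subunits of the sinusoidal bile acid exporter OST, rose by 2.10 and 1.57 in ENT and by 2.31 and 1.29 in MLE pigs, and the ENT rise of SLC51A was 2.92 without the near-identical libraries. ABCB4, the canalicular phospholipid translocator, rose by 1.70 and 1.09, and ABCC4, another sinusoidal exporter, by 1.07 and 0.79. ABCB11, the bile salt export pump, rose by 0.57 in ENT pigs (adjusted p = 0.00988), and its difference in MLE pigs was 0.01 (adjusted p = 0.975). For SLC10A1, the sinusoidal bile acid uptake transporter, the differences were -0.27 (adjusted p = 0.249) and -0.26 (adjusted p = 0.359). The test of the difference did not pass for ABCB11 (interaction -0.56, adjusted p = 0.495).

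In bile acid synthesis, CYP7A1 differed between the diets in sham pigs, and its interaction did not pass the test. CYP7A1, the rate-limiting enzyme of bile acid synthesis (gene 448985, chr4:74343101-74372628, overlapping SDCBP), was measured at 0.467 to 49.4 CPM in ENT-sham (median 5.58), 18.2 to 164 in ENT-BDL (median 66.0), 0 to 2.44 in MLE-sham (median 0.336) and 1.29 to 7.08 in MLE-BDL (median 3.20). Both BDL groups lay mostly above their sham groups. CYP7A1 rose with ligation on ENT by 2.52 ± 0.52 (adjusted p = 0.000527) and on MLE by 2.83 ± 0.89 (adjusted p = 0.0146), an interaction of 0.31 with an interval of -1.76 to 2.39. The highest ENT-sham value is the near-identical library, and the other ENT-sham pigs reached at most 40.3 CPM. Without both near-identical libraries the ENT response was 3.06 and the interaction -0.21 (interval -2.23 to 1.80, adjusted p = 0.972), so the sign of the estimate rests on that pair. Both intervals span a difference of over 2-fold either way, so equal responses are not shown. Between the sham groups CYP7A1 was lower on MLE by 4.64 on the log2 scale (adjusted p = 9.57e-06). CYP8B1, which sets the share of cholic acid, rose by 2.27 (adjusted p = 0.0291; 3.25 without the near-identical libraries) and 2.59 (adjusted p = 0.00926), and rests on few reads, with at most 7 counts in any sham pig on ENT and 11 on MLE, and at most 14 and 41 counts in BDL pigs. No other of the 14 genes of the list was called in either diet.

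The remaining genes with an interaction were spread over several functions. FGFR2, a fibroblast growth factor receptor (gene 396762, chr14:131183095-131285001), was measured at 30.7 to 52.7 CPM in ENT-sham (median 37.5), 32.2 to 66.9 in ENT-BDL (median 39.6), 45.3 to 78.5 in MLE-sham (median 64.2) and 29.2 to 48.0 in MLE-BDL (median 42.9). MLE-sham was the high group. FGFR2 fell by 0.64 ± 0.13 in MLE pigs (adjusted p = 0.000358) and differed by 0.17 ± 0.11 in ENT pigs (adjusted p = 0.329), an interaction of -0.81 (interval -1.15 to -0.46, adjusted p = 0.0394).

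DUSP22, a dual-specificity phosphatase that overlaps LOC106508466, had medians of 36.9 CPM in ENT-sham (27.4 to 54.4), 60.4 in ENT-BDL (44.4 to 69.3), 71.1 in MLE-sham (58.5 to 83.6) and 64.7 in MLE-BDL (49.5 to 70.1), so that ENT-sham was again the low group. It rose by 0.60 in ENT pigs (adjusted p = 1.37e-05), the MLE difference was -0.16 (adjusted p = 0.379) and the interaction was -0.76 (adjusted p = 0.0373). MRPL23, a protein of the large mitochondrial ribosomal subunit, had medians of 71.8, 94.5, 51.7 and 44.5 CPM in ENT-sham, ENT-BDL, MLE-sham and MLE-BDL. It rose by 0.41 in ENT pigs (adjusted p = 0.00126), the MLE difference was -0.25 (adjusted p = 0.108) and the interaction was -0.67 (adjusted p = 0.0394).

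NIPAL1, a magnesium transporter that overlaps CNGA1, was measured at 12.3 to 38.3 CPM in ENT-sham (median 23.1), 15.4 to 65.3 in ENT-BDL (median 29.5), 27.7 to 41.9 in MLE-sham (median 35.1) and 11.8 to 26.5 in MLE-BDL (median 21). The MLE groups did not overlap, as was true of 215 genes (1.33%) in that direction, and the ENT groups overlapped broadly. NIPAL1 fell by 0.82 in MLE pigs (adjusted p = 0.00282), the ENT difference was 0.36 (adjusted p = 0.15) and the interaction was -1.17 (interval -1.70 to -0.65, adjusted p = 0.0483). STBD1, which tethers glycogen to membranes, fell by 0.35 in MLE pigs (adjusted p = 0.00334), with an ENT difference of 0.17 (adjusted p = 0.12) and an interaction of -0.52 (adjusted p = 0.0483). The uncharacterised gene LOC102166670 fell by 0.73 in MLE pigs (adjusted p = 0.00054) and had an interaction of -0.91 (adjusted p = 0.0483). These 3 calls were lost with RLE scaling, without a filter on low counts, with a replicate block and in the pigs with shared title numbers, and that of NIPAL1 also with the 39 pigs alone.

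FABP3, a cytosolic fatty acid carrier (gene 399532, chr6:87943003-87950708), was 1 of the 3 genes with a response more upward on MLE, besides ABCC3 and LYPD6B. It was measured at 1.71 to 6.91 CPM in ENT-sham (median 3.54), 1.73 to 4.40 in ENT-BDL (median 2.63), 1.37 to 3.25 in MLE-sham (median 1.92) and 1.44 to 8.16 in MLE-BDL (median 4.85). All but 1 MLE-BDL pig lay above every MLE-sham pig. FABP3 rose by 1.26 ± 0.29 in MLE pigs (adjusted p = 0.0014) and differed by -0.50 ± 0.25 in ENT pigs (adjusted p = 0.174), an interaction of 1.76 (interval 0.99 to 2.52, adjusted p = 0.0394), which did not pass by limma-voom or in the pigs with shared title numbers. LYPD6B and LOC110257593 rest on few reads. LYPD6B had between 0 and 52 counts a pig and an interaction of 4.21 (interval 2.31 to 6.12, adjusted p = 0.0394), which turned to -1.98 within the title number of 5 pigs. LOC110257593 had at most 34 counts a pig and an interaction of -2.99 (interval -4.21 to -1.78, adjusted p = 0.0373). Neither was called in the pigs with shared title numbers or with at least 10 counts required in every pig, and LYPD6B was not called by limma-voom, with or without library weights. For the other 12 genes the value within that number had the sign of the whole comparison, and within the number of 6 pigs this held for all 13.

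Several genes, among them MMP7 and CLDN7 of the ductular reaction, passed the test only once the near-identical libraries were left out. MMP7, a matrix metalloproteinase of cholangiocytes and a serum marker of biliary atresia (gene 397411, chr9:33214590-33225080), was measured at 2.51 to 227 CPM in ENT-sham (median 4.11), 52.1 to 213 in ENT-BDL (median 84.7), 3.66 to 15.4 in MLE-sham (median 12.1) and 28.7 to 59.3 in MLE-BDL (median 48.7). The library labelled ENT-sham replicate 2 stood at 227.2 CPM and the other ENT-sham pigs at 2.51 to 9.87 CPM, so that 1 library decides the ENT value. With all pigs the MMP7 rise was 2.22 ± 0.51 on ENT (adjusted p = 0.00161) and 2.14 ± 0.59 on MLE (adjusted p = 0.0107), and the interaction of -0.08 had an interval of -1.64 to 1.48. Without both libraries the ENT response was 4.31 ± 0.26, and the interaction was -2.16 (interval -2.92 to -1.40, adjusted p = 0.0046). Within the title numbers it was -2.72 and -1.29. BDL pigs on both diets had more MMP7 than their sham pigs in either fit.

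CLDN7, an epithelial tight junction protein (gene 100127486, chr12:52612517-52628376), was measured at 2.80 to 15.6 CPM in ENT-sham (median 3.45), 13.3 to 26.3 in ENT-BDL (median 18.2), 2.51 to 5.85 in MLE-sham (median 3.70) and 4.51 to 11.5 in MLE-BDL (median 7.06). Here the sham groups were alike in their medians and the ENT-BDL group stood highest. The interaction was -1.04 with all pigs (adjusted p = 0.293) and -1.43 without the near-identical libraries (interval -2.0 to -0.86, adjusted p = 0.0128).

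CDH16, a cadherin first described in kidney epithelium (gene 100623412, chr6:27589183-27599002), had medians of 6.13 CPM in ENT-sham (2.82 to 93.2), 78.7 in ENT-BDL (18.03 to 111), 55.3 in MLE-sham (19.96 to 116) and 126 in MLE-BDL (56.5 to 173). The other ENT-sham pigs lay between 2.82 and 16.03 CPM, and without both libraries the ENT response was 3.32, against 2.32 with all pigs. Its interaction was -1.34 with all pigs (adjusted p = 0.514) and -2.34 without the near-identical libraries (adjusted p = 0.0144). S100G, the calcium-binding protein calbindin-D9k, which overlaps CTPS2, had medians of 1.00, 14.5, 38.3 and 42.7 CPM in ENT-sham, ENT-BDL, MLE-sham and MLE-BDL. Its interaction moved from -2.32 (adjusted p = 0.17) to -3.24 (adjusted p = 0.0128). Both genes were higher in MLE-sham than in ENT-sham pigs with all pigs in the fit, by 2.07 for CDH16 (adjusted p = 0.00026) and 3.94 for S100G (adjusted p = 2.09e-08).

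IL27RA, a cytokine receptor subunit, had an interaction of -0.55 with all pigs (adjusted p = 0.0894) and -0.63 without the near-identical libraries (adjusted p = 0.015). For TMEM91 the values were -1.40 (adjusted p = 0.0678) and -1.56 (adjusted p = 0.0173). CNTNAP5, a neurexin family member, was measured at 0.289 to 9.49 CPM in ENT-BDL pigs and at no more than 1.42 CPM in the other 3 groups, and its interaction was -3.50 (adjusted p = 0.0528) and -3.73 (adjusted p = 0.0173).

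**Figure D3:**
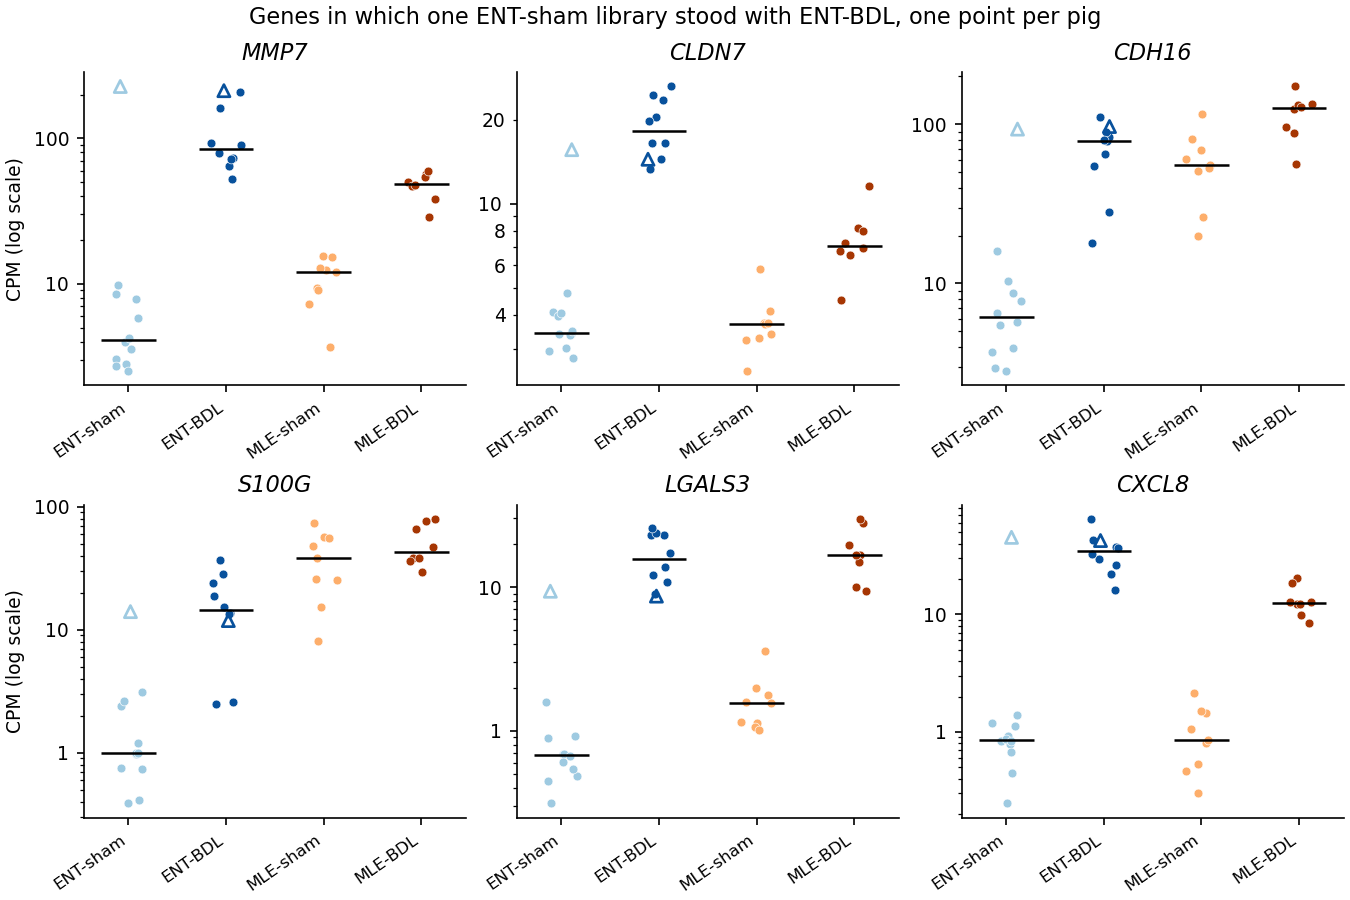
CPM on a log axis of MMP7, CLDN7, CDH16, S100G, LGALS3 and CXCL8 in each of the 39 pigs, by group, with a bar at the group median and open triangles for the near-identical libraries. The triangle in ENT-sham lies apart from the other ENT-sham pigs in each panel, as for MMP7 at 227.2 CPM against 2.51 to 9.87.

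Most genes called in 1 diet had a difference of the same sign in the other. Ligation called 552 genes in ENT pigs, 354 higher and 198 lower, and 605 genes in MLE pigs (3.73%), 398 higher and 207 lower. At any fold the counts were 2827 (17.4%) and 2339 (14.4%). Both diets called 247 genes (1.52%), 178 higher and 69 lower in both and none in opposite directions (1 by DESeq2, by limma-voom with library weights and without a filter on low counts, and 2 with the 39 pigs alone). These make up 44.8% of the ENT calls and 40.8% of the MLE calls. Without the near-identical libraries the counts were 723 (4.48%) in ENT, 486 higher and 237 lower, with 626 (3.88%) in MLE and 321 (1.99%) in both, which is 44.4% of the ENT calls and 51.3% of the MLE calls. Across the 16210 genes the log2 responses had a Pearson correlation of 0.66 and a Spearman correlation of 0.58, and 70.7% of genes had the same sign. The ENT and MLE pigs are different animals, but genes are not independent points, and the responses share the filter and the estimate of spread, so no p is given.

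Of the 552 genes called in ENT pigs, 519 (94.0%) had the same sign in MLE pigs. The 354 ENT rises had a median of 1.42 in ENT and 1.22 in MLE pigs, and the 198 falls a median of -1.39 and -0.99. Of the 605 genes called in MLE pigs, 577 (95.4%) had the same sign in ENT pigs, with medians of 1.52 in MLE and 1.00 in ENT pigs for the rises and -1.40 and -0.78 for the falls. In each case the diet that chose the genes has the larger median, which the choice by size favours.

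**Figure D4:**
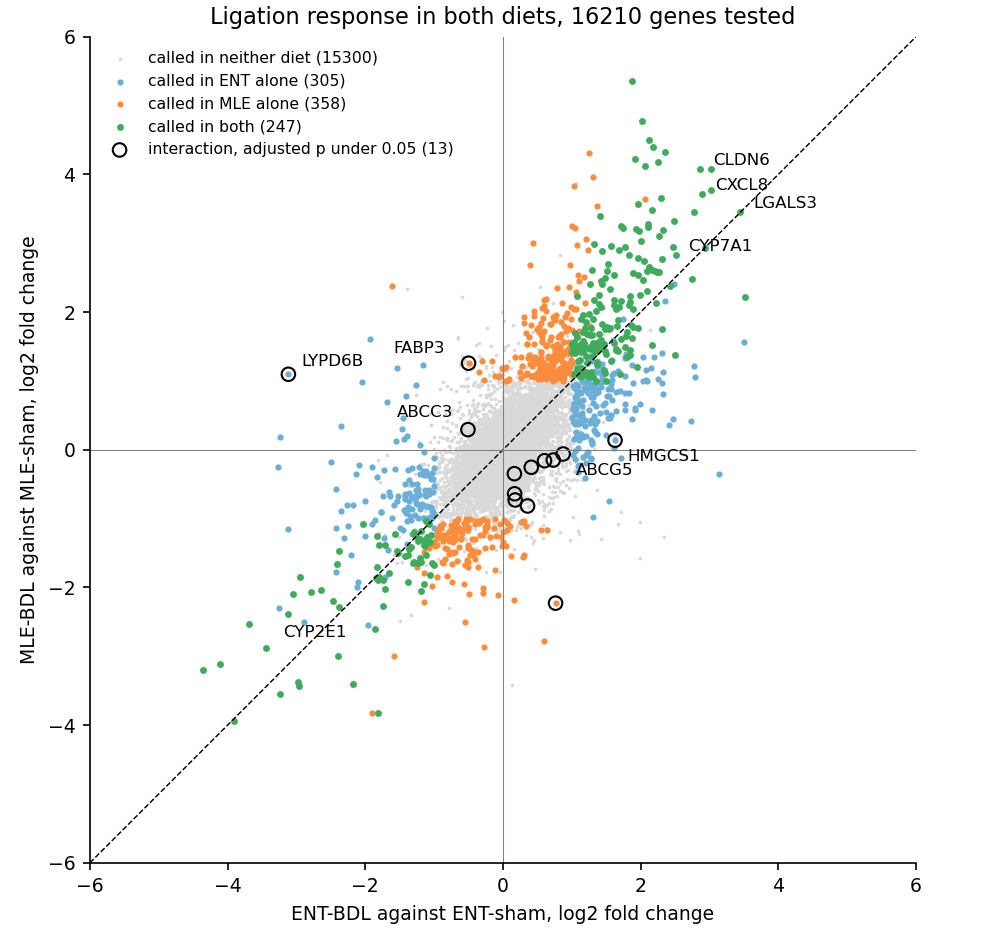
Log2 difference between BDL and sham in MLE pigs against that in ENT pigs for the 16210 genes tested, marked by the diet in which each was called, with the 13 genes that passed the test of the interaction circled. The 247 genes called in both diets lie in the upper right and lower left quadrants, and none lies in the other quadrants.

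The 305 genes called in ENT pigs alone and the 358 called in MLE pigs alone were mostly not shown to differ. Only 2 of the 305 and 2 of the 358 passed the test of the interaction. With the near-identical libraries left out these were 13 of 402 in ENT alone and 2 of 305 in MLE alone, and without the library labelled ENT-sham replicate 2 alone 19 of 452 in ENT. Of the 305, 272 had the same sign in MLE pigs and 43 passed there at a smaller fold, and of the 358, 330 had the same sign in ENT pigs and 109 passed there. Without the near-identical libraries 80 of the 402 in ENT alone passed in MLE pigs, and 97 of the 305 in MLE alone passed in ENT pigs. Nor were most shown to be equal. The 95% interval of the interaction lay within 2-fold either way for 11933 of all genes (73.6%; 73.3% without the near-identical libraries), but for 48 of the 247 called in both, 23 of the 305 and 36 of the 358. Leaving out the near-identical libraries gave 77 of 321, 44 of 402 and 35 of 305. The typical interval reached 0.40 to each side on the log2 scale (median over all genes), and it was wider for many of the genes that responded.

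At a mean log2 CPM of 2 or more, the shared rises with the largest smaller response were LGALS3, CXCL8, CLDN6, TNFRSF12A, ANKRD1, S100A6 and IGSF23, besides CYP7A1. LGALS3, the galectin of macrophages and injured epithelium (gene 100038033), was measured at 0.314 to 9.36 CPM in ENT-sham (median 0.676), 8.66 to 25.9 in ENT-BDL (median 15.6), 1.01 to 3.57 in MLE-sham (median 1.57) and 9.35 to 29.9 in MLE-BDL (median 16.6). The MLE groups did not overlap, as was true of 247 genes (1.52%) in that direction, and the ENT-sham pigs other than the near-identical library (at most 1.58 CPM) lay below every ENT-BDL pig (1.27% of genes, as above). LGALS3 rose by 3.45 in both diets (adjusted p = 1.81e-07 and 4.74e-06), and by 4.59 in ENT pigs without the near-identical libraries. Its interaction was -0.00 with all pigs (interval -1.36 to 1.35) and -1.13 without the near-identical libraries (interval -2.31 to 0.06, adjusted p = 0.509).

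CXCL8, the neutrophil chemokine (gene 396880), was measured at 0.247 to 45.3 CPM in ENT-sham (median 0.859), 16.2 to 65.2 in ENT-BDL (median 34.6), 0.300 to 2.14 in MLE-sham (median 0.850) and 8.43 to 20.3 in MLE-BDL (median 12.5). The ENT-sham value of 45.3 CPM is the near-identical library, and the other ENT-sham pigs lay at or below 1.39 CPM. The CXCL8 rise was 2.89 on ENT (adjusted p = 7.05e-05; 5.32 without the near-identical libraries) and 3.72 on MLE (adjusted p = 0.000107). Its interaction turned from 0.82 with all pigs to -1.60 without the near-identical libraries, and neither value passed (adjusted p = 0.845 and 0.154).

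Such a turn of sign was also seen for CLDN6, a claudin of fetal epithelia, from 1.22 to -0.76 (adjusted p = 0.64 and 0.545). ANKRD1, a target of the YAP pathway that overlaps RPP30, went from 0.87 to -0.999 (adjusted p = 0.827 and 0.495). It rests on few reads in sham pigs, at 0.0672 to 0.66 CPM on MLE and 0.188 to 1.27 on ENT without the near-identical library. TNFRSF12A, the receptor of the cytokine TWEAK, rose by 2.43 in ENT (3.43 without the near-identical libraries) and 2.38 in MLE pigs, and its interaction went from -0.06 to -1.04 (adjusted p = 0.988 and 0.247). S100A6, a calcium-binding protein, rose by 2.30 and 3.66 (3.53 in ENT pigs without the near-identical libraries), with an interaction of 1.36 (adjusted p = 0.523) with all pigs and 0.14 (adjusted p = 0.955) without the near-identical libraries. IGSF23, which overlaps LOC106509492, rose by 2.27 (4.04 without the near-identical libraries) and 3.11, and its interaction turned from 0.84 to -0.92 (adjusted p = 0.807 and 0.551). For CXCL8, CLDN6, ANKRD1 and IGSF23, as for CYP7A1, the near-identical libraries thus decide the sign of the estimate. The ENT rise of CLDN6 went from 2.87 to 4.85 without them, and that of ANKRD1 from 2.32 to 4.20.

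The count of shared falls moved less than that of shared rises without the near-identical libraries, from 69 to 80 against 178 to 241. Values of the single genes that follow are with all pigs unless stated. BACH2, a transcriptional repressor of lymphocytes (gene 100620522, chr1:57881203-58281740, overlapping GJA10 and LOC110260363), was measured at 11.11 to 30.1 CPM in ENT-sham (median 20.2), 5.84 to 10.8 in ENT-BDL (median 8.53), 16.9 to 32.1 in MLE-sham (median 19.2) and 5.84 to 9.14 in MLE-BDL (median 7.71). The BDL pigs lay below all sham pigs of their diet on both diets, as was true of 11 genes (0.0679%) in ENT and 215 (1.33%) in MLE pigs, and of 143 genes (0.882%) in ENT pigs without the near-identical libraries. BACH2 fell by 1.38 ± 0.14 (adjusted p = 1.06e-09) and 1.53 ± 0.16 (adjusted p = 3.2e-09). The interval of its interaction, -0.58 to 0.28, lay within 2-fold, so that any difference between the diets was bounded.

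CORIN, a serine protease that activates natriuretic peptides and overlaps ATP10D and LOC102166909, fell by 1.81 and 1.89 (adjusted p = 9.4e-11 and 2.65e-09), with an interval of the interaction of -0.58 to 0.44. SERPINA11, a secreted member of the serpin family, fell by 1.12 and 1.04, with an interval of -0.43 to 0.59. PARVB, an adaptor at integrin adhesions that overlaps LOC110260615, rose by 1.12 and 1.08, with an interval of -0.52 to 0.43. UNC5CL, a death-domain protein that overlaps TSPO2, rose by 1.01 and 1.42, with an interval of -0.15 to 0.98. These 5 genes had the narrowest intervals among the 48 genes called in both diets whose interval lay within 2-fold, although that of UNC5CL reached nearly 2-fold.

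CYP2E1, the ethanol-inducible cytochrome P450 (gene 403216), fell from a median of 1219 CPM in ENT-sham (164 to 1661) to 312 in ENT-BDL (38.9 to 515), and from 163 in MLE-sham (33.1 to 277) to 16.9 in MLE-BDL (4.97 to 110). The lowest ENT-sham value is the near-identical library, and the other ENT-sham pigs lay between 524.8 and 1661 CPM, above every ENT-BDL pig. The falls were 1.86 (adjusted p = 0.0106; 1.91 without the near-identical libraries) and 2.60 (adjusted p = 0.00258) on the log2 scale, and the interaction of -0.73 had a wide interval of -2.29 to 0.82. CYP2E1 was also lower on MLE than on ENT in sham pigs, by 2.68 (adjusted p = 0.00044). UOX, the urate oxidase, fell by 1.52 and 1.495, and CP, the copper ferroxidase ceruloplasmin, which overlaps HPS3, by 1.54 and 1.47. DUSP6, a phosphatase that limits ERK signalling, fell by 1.83 and 1.26, and RTP3 by 2.38 and 1.48. C4BPA_100520761, a regulator of complement that overlaps LOC102159174, fell by 1.82 and 1.84.

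The gene lists were read by their counts and medians. Over all genes the medians of the responses were 0.00 in ENT and -0.01 in MLE pigs, and for 26 of 32 lists the medians of both diets had the same sign. In bulk tissue, fewer cells of a type and less RNA per cell cannot be told apart, which holds for every list below.

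**Figure D5:**
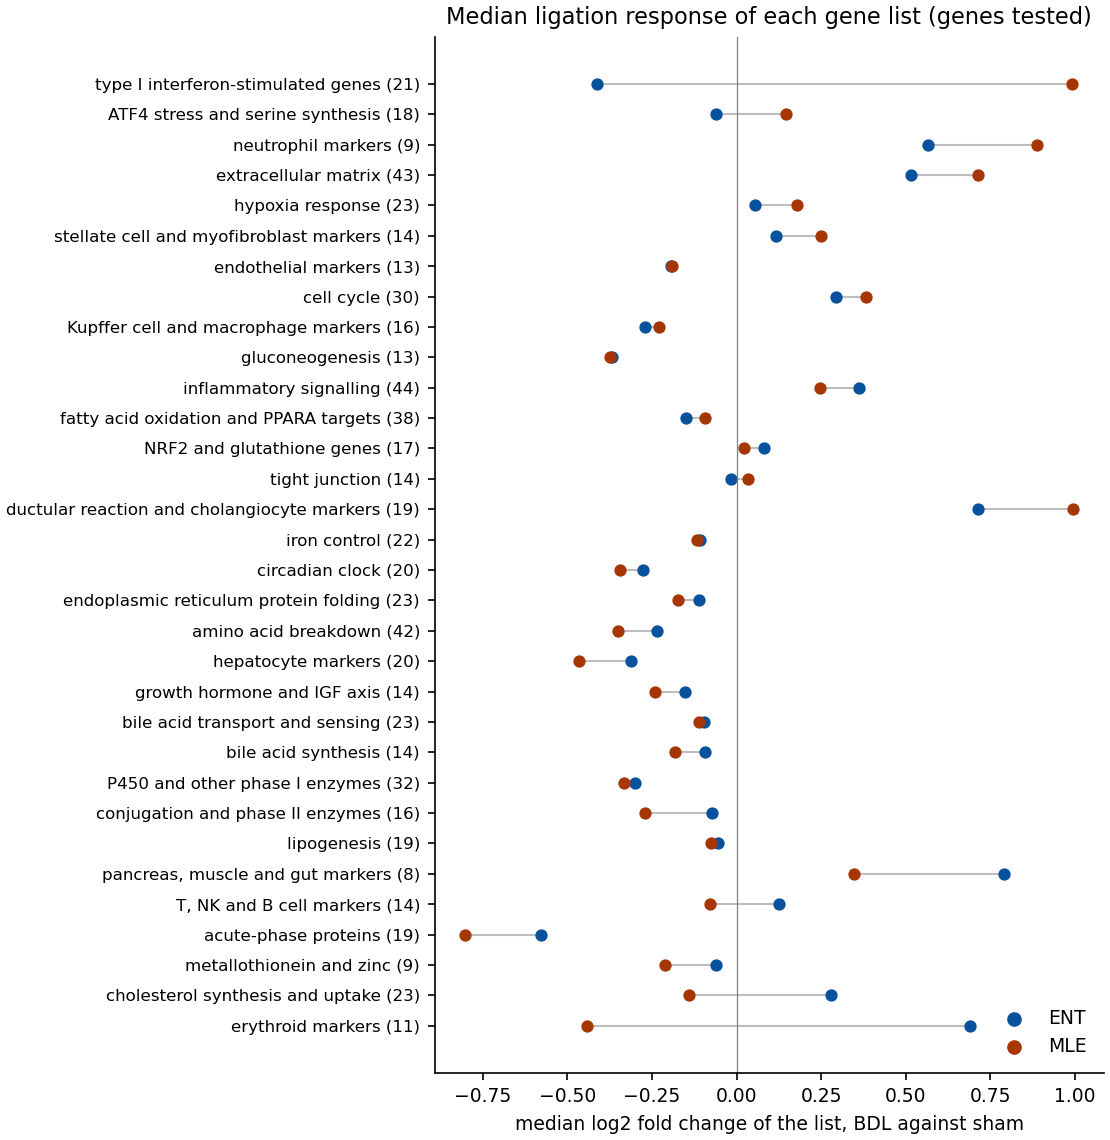
Median log2 difference between BDL and sham over the tested genes of each of the 32 lists, in ENT and in MLE pigs, with the number of genes tested in brackets. The medians lie apart most for the interferon-stimulated genes (-0.41 and 0.99) and the erythroid markers (0.69 and -0.44), and the cholesterol list is on opposite sides of 0 (0.28 and -0.14).

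Most of the ductular reaction and cholangiocyte markers rose at any fold on each diet, 12 of 19 in ENT (background 8.78%) and 13 in MLE pigs (7.23%). Of 19 tested genes, 9 were called higher in ENT (background for rises over 2-fold, 2.18%) and 9 in MLE pigs (2.46%), 8 of them in both, and the medians were 0.71 and 1.00. KRT7 and KRT19, the cholangiocyte keratins, rose by 1.86 and 1.34 in ENT and by 1.82 and 1.44 in MLE pigs, and without the near-identical libraries the ENT rises were 2.66 and 1.61. SPP1, osteopontin, rose by 2.17 and 1.53. SOX9, the transcription factor of biliary cells and their precursors, was measured at 3.96 to 37.9 CPM in ENT-sham (median 6.48), 5.33 to 36.1 in ENT-BDL (median 15.3), 2.27 to 8.11 in MLE-sham (median 6.63) and 13.2 to 23.6 in MLE-BDL (median 19.1). It rose by 1.63 in MLE pigs (adjusted p = 0.000307), and its ENT difference of 0.70 did not pass (adjusted p = 0.0753) until the near-identical libraries were left out (0.91, adjusted p = 0.00371). The interaction was 0.93 (interval 0.07 to 1.80, adjusted p = 0.513). PROM1, a progenitor surface marker, fell by 1.62 in MLE pigs (adjusted p = 0.00425), and its ENT difference was -0.67 (adjusted p = 0.196). Without the near-identical libraries MMP7 and CLDN7 of this list passed the test of the interaction.

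Many extracellular matrix genes rose on both diets. Of 43 tested genes, 21 rose at any fold in ENT (background 8.78%) and 28 in MLE pigs (7.23%), and 4 and 11 of these were over 2-fold (background 2.18% and 2.46%). Without the near-identical libraries 26 rose in ENT and 29 in MLE pigs, 7 and 11 of them over 2-fold. Of all 16141 genes in that fit, 1733 rose in ENT and 1364 in MLE pigs, 486 and 423 of them over 2-fold. The summed level of the matrix genes overlapped between sham and BDL pigs of both diets, with medians of 12770 and 13340 CPM on ENT and of 12320 and 14330 on MLE. The medians were 0.52 and 0.71, the interaction estimate was below 0 for 7 of the 43, and none passed the test of the interaction. COL3A1, a fibrillar collagen chain, rose by 0.79 (adjusted p = 0.00318) and 0.98 (adjusted p = 0.00152), and COL1A1 differed by 0.79 in ENT pigs (adjusted p = 0.0855) and rose by 1.54 in MLE pigs (adjusted p = 0.00287). The library labelled ENT-sham replicate 2 had 1200 CPM of COL1A1, the other ENT-sham pigs 203 to 644, and without the near-identical libraries COL1A1 rose by 0.95 in ENT pigs (adjusted p = 0.0263). VCAN, a large proteoglycan, rose by 1.31 and 1.90, and TIMP1, an inhibitor of matrix metalloproteinases, by 1.41 and 3.39. TGFB1, the fibrogenic cytokine, overlapping LOC110261354, was measured at 25.5 to 45.4 CPM in ENT-sham (median 37.0), 21.1 to 55.2 in ENT-BDL (median 42.1), 19.7 to 48.8 in MLE-sham (median 32.8) and 35.6 to 58.9 in MLE-BDL (median 44.9). It rose by 0.50 in MLE pigs (adjusted p = 0.0107), the ENT difference was 0.12 (adjusted p = 0.571), and the interaction of 0.39 did not pass (adjusted p = 0.557). Of the 14 stellate cell and myofibroblast markers none was called in either diet. ACTA2, smooth muscle actin, differed by 0.10 (adjusted p = 0.766) and 0.49 (adjusted p = 0.103), and PDGFRB by 0.22 (adjusted p = 0.335) and 0.24 (adjusted p = 0.373).

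Of 44 inflammatory signalling genes, 7 were called higher in each diet (background 2.18% in ENT and 2.46% in MLE), 5 of them in both, and the medians were 0.36 and 0.25. Without the near-identical libraries 10 were called higher in ENT pigs (486 of all 16141 genes in that fit), 7 of them in both diets. Shared were CXCL8, LGALS3, the chemokines CXCL2 (1.89 and 2.05) and CCL20 (2.31 and 2.77), and the kinase IKBKE (1.495 and 1.004). RELB, an NF-kappaB subunit (1.09, adjusted p = 0.000322), and VCAM1, a leukocyte adhesion molecule (1.33, adjusted p = 4.24e-06), were called in ENT pigs, with MLE differences of 0.42 (adjusted p = 0.28) and 0.49 (adjusted p = 0.146). CCL2 (1.11, adjusted p = 0.00786) and CXCL14 (2.08, adjusted p = 7.09e-05) were called in MLE pigs, and in ENT pigs they rose by 0.87 (adjusted p = 0.0162) and 1.00 (adjusted p = 0.0253). No gene of the list passed the test of the interaction, with or without the near-identical libraries. Of 9 neutrophil markers, CSF3R was called higher in MLE pigs (1.76, adjusted p = 0.000197) and rose by 0.94 in ENT pigs (adjusted p = 0.02), where 1 marker was called without the near-identical libraries and none with them, and their summed level was 8.47 to 23.1 CPM in ENT-sham, 6.03 to 37.0 in ENT-BDL, 7.46 to 24.1 in MLE-sham and 9.96 to 42.3 in MLE-BDL pigs. S100A8 differed by 0.96 (adjusted p = 0.168) and 0.56 (adjusted p = 0.546). Of 16 markers of Kupffer cells and macrophages, 2 were called higher on both diets (MARCO and LYZ), while the medians were -0.27 in ENT and -0.23 in MLE pigs. At any fold 3 rose (background 8.78%) and 2 fell (8.66%) in ENT pigs, where 4 fell without the near-identical libraries (1651 of all 16141 genes), and 4 rose (7.23%) and 3 fell (7.2%) in MLE pigs. Their summed level had medians of 2308 CPM in ENT-sham (1352 to 2847), 1651 in ENT-BDL (1253 to 2168), 1809 in MLE-sham (1426 to 2455) and 1402 in MLE-BDL pigs (1183 to 1867). CD5L, the most abundant of them, fell by 0.66 in both diets (adjusted p = 0.00404 and 0.0131). MARCO, a scavenger receptor, rose by 1.48 and 1.11 (adjusted p = 1.11e-05 and 0.00329), whereas CD163 differed by -0.38 (adjusted p = 0.208) and -0.33 (adjusted p = 0.367).

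Many hepatocyte products fell on both diets. Of 20 hepatocyte markers, 12 fell in ENT and 11 in MLE pigs at any fold (background 8.66% and 7.2%), with ALB, albumin, down by 0.83 and 0.79. The summed level of the list was 72960 to 159100 CPM in ENT-sham (median 138400), 72810 to 122700 in ENT-BDL (median 94690), 124900 to 180800 in MLE-sham (median 132200) and 77400 to 92530 in MLE-BDL pigs (median 85990). The near-identical libraries had the lowest sums of both ENT groups, and the other ENT pigs ran from 118600 to 159100 CPM after sham surgery and from 84890 to 122700 after ligation. Of 42 genes of amino acid breakdown 17 fell at any fold in each diet. Of 32 phase I enzymes, 9 were called lower in ENT (background 1.22%) and 3 in MLE pigs (1.28%), whereas 3 were called higher in ENT (2.18%) and 1 in MLE pigs (2.46%). Their summed level had medians of 11840 CPM in sham and 11560 in BDL pigs on ENT and of 7531 and 7699 on MLE, and the groups of each diet overlapped. Of the 32, 14 were lower in MLE-sham than in ENT-sham pigs (background 10.4%). ADH4, an alcohol dehydrogenase, fell by 2.43 in ENT pigs (adjusted p = 6.09e-06), and its MLE difference was -0.57 (adjusted p = 0.404). No phase I enzyme passed the test of the interaction, with or without the near-identical libraries. CYP3A22, a member of the pregnane X receptor's target family and the most abundant of the list, rose by 1.95 and 1.21.

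Of 19 acute-phase proteins, 5 were called lower in ENT (background 1.22%) and 6 in MLE pigs (1.28%), and SAA3 was called higher in ENT pigs (1.55, adjusted p = 0.0496; -0.74 in MLE pigs, adjusted p = 0.499). HP, haptoglobin, fell by 0.99 (adjusted p = 0.00844) and 1.40 (adjusted p = 0.00128), and ITIH4 by 1.13 and 1.40. One of the C-reactive protein genes, CRP_396842, fell by 3.27 in ENT pigs (adjusted p = 4.52e-06), with a difference of -0.24 in MLE pigs (adjusted p = 0.818). Its interaction passed only without the near-identical libraries (3.09, adjusted p = 0.0277), and since a second CRP gene is annotated the counts of either are uncertain where their sequences are alike.

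Of 23 genes of the hypoxia response, 5 were called higher in MLE (background 2.46%) and 1 in ENT pigs (2.18%), and none passed the test of the interaction. HK2, a hexokinase, rose on both diets, by 1.98 on ENT (adjusted p = 0.00312) and 3.17 on MLE (adjusted p = 5.39e-05). EGLN3, a prolyl hydroxylase, rose by 2.08 in MLE pigs (adjusted p = 6.56e-05) and differed by 0.60 in ENT pigs (adjusted p = 0.199). EPO, erythropoietin, rose by 2.38 in MLE pigs (adjusted p = 0.0255) and differed by -1.61 in ENT pigs (adjusted p = 0.0777), an interaction of 3.99 (adjusted p = 0.0945) at a mean level of only -1.62 log2 CPM.

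The type I interferon-stimulated and erythroid lists had the widest gaps between the diets in median, without a gene that passed. For the interferon list all 21 interaction estimates were above 0, with a median of 1.54, and no gene was called in either diet. ISG15, a ubiquitin-like protein, had a difference of -0.59 on ENT (adjusted p = 0.68) and of 2.22 on MLE (adjusted p = 0.111), and IFIT1 of -0.35 (adjusted p = 0.796) and 1.37 (adjusted p = 0.288). The summed level was 328 to 7861 CPM in ENT-sham (median 1476), 338 to 4547 in ENT-BDL (median 835), 362 to 1511 in MLE-sham (median 574) and 654 to 3318 in MLE-BDL pigs (median 836), with all 4 groups overlapping. For the 11 erythroid markers all interaction estimates were below 0, with a median of -1.22. Their summed level was 493 to 2509 CPM in ENT-sham (median 1169), 350.9 to 3914 in ENT-BDL (median 1172), 448 to 862 in MLE-sham (median 536) and 143 to 521 in MLE-BDL pigs (median 222). ALAS2, the first enzyme of erythroid haem synthesis, and HBB, a globin, fell by 1.16 (adjusted p = 0.0279) and 1.11 (adjusted p = 0.0363) in MLE pigs. Between the BDL groups 6 of the 11 were lower on MLE (background 8.86%). The genes of each list were measured in the same pigs, so a shared direction is not many independent observations.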

How the data were processed

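Liver RNA of 60 pigs was sequenced by the authors, and their deposited table holds counts, whole-number reads per gene, with no normalization. The submitters' processing notes name HISAT2 2.0.5, StringTie 1.3.3, featureCounts 1.5.0-p3 and the build Sscrofa11.1. The library kit named in the methods does not mark strand. The 24 features without a gene name (0.0085% to 0.0407% of reads) were left out, and 0 other per-sample columns were unused. TMM-scaled CPM were computed from the remaining 30335 genes.

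Genes were kept by filterByExpr over the 6 groups of the series, scaled by TMM and fitted with edgeR 4.0.16 (R 4.3.3) by robust quasi-likelihood on all 60 pigs, with contrasts for the interaction, for each diet's response and between diets within each surgery. P-values were adjusted over all 16210 genes by Benjamini-Hochberg. An interaction was called at an adjusted p under 0.05 at any fold, and a response at the same p and over 2-fold. SEs are Wald errors of the log2 coefficient, and intervals are 95%. Replicates are separate pigs per the labels.

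Named were genes with an interaction, with all pigs or without the near-identical libraries (12 lowest p each, the latter with mean log2 CPM 0 or more), the 8 rises and 8 falls called in both diets with the largest smaller response at mean log2 CPM 2 or more, genes called in opposite directions (none), the first 2 genes of each of 32 lists with SOX9, MMP7, TGFB1 and CYP7A1, and the 5 genes called in both with the narrowest interval within 2-fold. Some genes that this rule names are not reported here. Other genes of a list, such as those that illustrate its counts, were chosen after their values were seen. The comparison, its members and the lists were chosen with earlier results of these data known. Alternatives were DESeq2 1.42.0, limma 3.58.1 (voom, with and without library weights), other filters and scalings, blocks, subsets and leaving out each pig. Values within single title numbers were added after seeing the data. Pigs of different groups that share a replicate number did not deviate together (52 pairs, median r -0.03), so the numbers were not taken to pair them. Pigs of different groups that share the title number had a median r of 0.16 (61 pairs, -0.05 to 0.64), against -0.02 for those with different title numbers (505 pairs), and fits with the title number as a block are given in the text.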

Additional observations from a re-analysis of the deposited data

Results flagged for a closer look

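The 13 genes for which the diets differed in the ligation response by the test of the interaction (log2, MLE minus ENT) were HMGCS1 at -1.49, SQLE at -0.88, ABCG5 at -0.94, DUSP22 at -0.76, FGFR2 at -0.81, MRPL23 at -0.67, NIPAL1 at -1.17, STBD1 at -0.52, LOC102166670 at -0.91, LOC110257593 at -2.99, ABCC3 at 0.80, FABP3 at 1.76 and LYPD6B at 4.21. Of these, HMGCS1, SQLE, ABCG5, MRPL23, DUSP22, ABCC3 and FGFR2 passed in 11 of 12 other settings that left no single pig out, the exception being the fit on pigs with title numbers held by both diets.

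A library stood far from the rest of its group for 5 genes, among 117 tests of a gene in a group of 4 to 10 pigs, and chance gives about 1 in 20. ENT-sham, with 12 pigs, was outside that size and was not screened. In that group the library labelled ENT-sham replicate 2 was at 21.2 CPM for ANKRD1, against 0.188 to 1.27 CPM in the other pigs. CYP2E1 was at 33.1 CPM in MLE-sham replicate 6, where its group otherwise ran from 111 to 277 CPM. FABP3 was at 1.44 CPM in MLE-BDL replicate 8, against 3.93 to 8.16 in the others. FGFR2 was at 29.2 CPM in MLE-BDL replicate 1, against 38.01 to 48.05 in the others. LOC110257593 was at 0.129 CPM in ENT-BDL replicate 2, against 0.553 to 1.67 in the others. SQLE was at 131.9 CPM in MLE-sham replicate 9, against 173.6 to 228.2 in the others.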

How the results depend on the processing

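The interaction passed for 13 genes, against 47 by DESeq2, 182 by voom with library weights, 37 with the 39 pigs alone, 72 with the title number as a block, 38 without the near-identical libraries, 126 with both of these changes, 5 over 2-fold and 0 in the pigs with title numbers held by both diets (710 at an unadjusted p under 0.05, lowest adjusted p 0.56). None of the 13 was still called in that last fit. It holds 16 pigs, and the median SE of the interaction was 0.297, against 0.198 in the main fit. The cholesterol list's median interaction was -0.62 in it, against -0.41 in the main fit. With each pig left out in turn the count ran from 0 to 47, with 0 to 13 of the 13 kept. It was 1 without MLE-BDL replicate 1 or MLE-sham replicate 9, 2 without MLE-sham replicate 8, 4 without ENT-BDL replicate 3, 5 without ENT-BDL replicate 5 or 8, 7 without ENT-sham replicate 1 or 10, 8 without ENT-BDL replicate 6 and 23 without MLE-sham replicate 2, besides those named above. The response counts were 224 (ENT), 263 (MLE) and 106 (both) with at least 10 counts in every pig, 117, 315 and 62 in the pigs with shared title numbers, and 2827 and 2339 at any fold. With each pig left out they ran from 484 to 801, 551 to 654 and 223 to 349. The correlation of the responses was 0.673 by voom, 0.314 without a filter, 0.680 with at least 10 counts, 0.671 with the title number as a block, 0.511 in shared title numbers, 0.679 without the near-identical libraries, 0.682 with that block as well, 0.698 at a mean log2 CPM of at least 2, and 0.638 to 0.687 with each pig left out. With each pig left out, 11763 to 11920 genes had an interval within 2-fold and 24 to 29 lists had medians of the same sign. With a replicate block, 19 genes had an interaction (10 of the 13), 536, 614 and 252 were the response counts and the correlation was 0.643, and the shared replicate numbers are not taken as pairing (13 of 104 best matches in another group had the same number). The causes of these moves were not tested. Of the values called, LYPD6B and the MLE response of FABP3 (-0.05) changed sign within 1 title number. The unadjusted interval reached a median of 0.40 to each side, and larger estimates than that, such as 0.93 for SOX9, did not pass.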

Other observations

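Other gene groups moved in ways that the comparison of responses does not lead with. Of 30 cell cycle genes, 10 rose at any fold in ENT (background 8.78% of all genes) and 2 in MLE pigs (7.23%), or 11 and 5 without the near-identical libraries (1733 and 1364 of all 16141 genes), while the medians were 0.29 and 0.38 and the interval of the interaction lay within 2-fold for all 30, so any difference between the diets was bounded. MKI67 and TOP2A, markers of dividing cells, rose by 0.47 (adjusted p = 0.0386) and 0.44 (adjusted p = 0.0243) in ENT pigs, and differed by 0.40 (adjusted p = 0.14) and 0.35 (adjusted p = 0.133) in MLE pigs. Of 23 genes of protein folding in the endoplasmic reticulum, 2 fell in ENT (background 8.66%) and 1 in MLE pigs (7.2%), whereas 18 were higher in MLE-sham than in ENT-sham (background 10.7%) and 15 higher in MLE-BDL than in ENT-BDL pigs (7.59%). HSPA5, the chaperone BiP, differed by -0.10 (adjusted p = 0.778) with ligation in ENT and by -0.25 (adjusted p = 0.476) in MLE pigs, and DERL3 by -0.19 (adjusted p = 0.788) and -0.06 (adjusted p = 0.945).

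Of 13 gluconeogenesis genes, 5 fell in ENT (background for falls at any fold, 8.66%) and 6 in MLE pigs (7.2%). PCK1 differed by -0.75 in ENT (adjusted p = 0.11) and fell by 1.09 in MLE pigs (adjusted p = 0.041), and G6PC differed by -0.47 (adjusted p = 0.238) and fell by 1.44 (adjusted p = 0.000879). Of 20 circadian clock genes 7 fell in each diet against the same background, and 1 and 1 over 2-fold (3 in ENT pigs without the near-identical libraries, where 237 of all 16141 genes were called lower). CRY1, a clock repressor, passed the test of the interaction only without those libraries (-0.78, adjusted p = 0.0383; -0.75, adjusted p = 0.0678 with all pigs), as did OCLN, occludin, of the tight junction list (-0.62, adjusted p = 0.0354; -0.58, adjusted p = 0.0945) and TF_396845, a transferrin gene of the iron list (-0.62, adjusted p = 0.0378; -0.63, adjusted p = 0.0528). NR1D1 fell by 0.97 in ENT pigs (adjusted p = 0.00434), with -0.04 in MLE pigs (adjusted p = 0.949), and PER2 differed by -0.48 (adjusted p = 0.141) and fell by 0.75 (adjusted p = 0.0406). Of 38 genes of fatty acid oxidation 10 fell in ENT (8.66%) and 5 in MLE pigs (7.2%). CPT1A fell by 0.42 in ENT pigs (adjusted p = 0.0336) and differed by 0.13 in MLE pigs (adjusted p = 0.671). Of 14 genes of the growth hormone and IGF axis 3 fell in each diet, GHR by 0.54 (adjusted p = 0.00378) and 0.72 (adjusted p = 0.00096), and IGF1 differed by -0.73 (adjusted p = 0.153) and -0.05 (adjusted p = 0.952). Apart from CRY1, no gene of the gluconeogenesis, clock, fatty acid oxidation and growth hormone lists passed the test of the interaction, with or without the near-identical libraries.

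The other lists gave few calls over 2-fold, against 2.18% of all genes higher and 1.22% lower in ENT and 2.46% and 1.28% in MLE pigs. Apart from OCLN and TF_396845, none of their genes passed the test of the interaction, with or without the near-identical libraries. Of 14 tight junction genes none was called in either diet, with CLDN1 at -0.20 (adjusted p = 0.172) and falling by 0.79 in MLE pigs (adjusted p = 2e-06), and CLDN2 at -0.32 (adjusted p = 0.364) and 0.31 (adjusted p = 0.479). Of 19 lipogenesis genes 1 was called lower in ENT and 2 in MLE pigs, with FASN at -0.11 (adjusted p = 0.821) and -0.21 (adjusted p = 0.7) and SCD at 0.22 (adjusted p = 0.527) and 0.04 (adjusted p = 0.938). Of 16 conjugation enzymes 1 was called higher in ENT and 2 lower in MLE pigs. SULT2A1 differed by -0.02 (adjusted p = 0.972) and fell by 1.27 (adjusted p = 0.0128), and UGT1A6 fell by 0.46 (adjusted p = 0.0174) and differed by -0.21 (adjusted p = 0.41). Of 22 iron genes 1 was called lower in MLE pigs, with HAMP, hepcidin, at -0.78 (adjusted p = 0.114) and 0.55 (adjusted p = 0.653), and TFRC at -0.22 (adjusted p = 0.455) and -0.23 (adjusted p = 0.497). Of 9 metallothionein and zinc genes none was called, with MT1A at 0.02 (adjusted p = 0.962) and -0.42 (adjusted p = 0.247) and MT1D at -0.02 (adjusted p = 0.941) and -0.36 (adjusted p = 0.072).

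Of 18 genes of the ATF4 response 2 were called higher in each diet, 1 of them in both, and ASNS was at -0.40 (adjusted p = 0.107) and -0.11 (adjusted p = 0.779), and TRIB3 at -0.20 (adjusted p = 0.695) and 0.30 (adjusted p = 0.562). Of 17 NRF2 and glutathione genes 2 were called higher in ENT and 1 in MLE pigs, with NQO1 at 0.53 (adjusted p = 0.112) and -0.10 (adjusted p = 0.854), and GCLC at -0.24 (adjusted p = 0.286) and falling by 0.76 (adjusted p = 0.000884). Of 14 markers of T, NK and B cells 1 was called, lower in MLE pigs, and CD3E was at 0.07 (adjusted p = 0.924) and -0.09 (adjusted p = 0.917), and CD79A at -0.30 (adjusted p = 0.496) and 0.05 (adjusted p = 0.944). Of 13 endothelial markers 1 was called, lower in MLE pigs, with PECAM1 at 0.11 (adjusted p = 0.582) and 0.15 (adjusted p = 0.486), and STAB2 at -0.19 (adjusted p = 0.664) and -0.33 (adjusted p = 0.479). Of 8 tested markers of pancreas, muscle and gut 2 were called higher in both diets, and the summed level of the list was 26.4 to 69.6 CPM in ENT-sham, 50.5 to 88.6 in ENT-BDL, 41.2 to 92.1 in MLE-sham and 76.7 to 124 in MLE-BDL pigs. CPA1 and CELA2A, pancreatic enzymes, differed by -0.75 (adjusted p = 0.124) and 0.17 (adjusted p = 0.747) in ENT and by -0.45 (adjusted p = 0.497) and -0.46 (adjusted p = 0.381) in MLE pigs.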
